A study of Homo sapiens with 14 samples.

Results

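The axon guidance ligands and receptors of the semaphorin, ephrin, Slit and netrin systems were described across 14 human neuroblastoma cell lines. They were taken from the count table by symbol: semaphorins SEMA3 to SEMA7, plexins, neuropilins, ephrins and Eph receptors, ROBO, SLIT, NTN and UNC5 genes, DCC and NEO1. This gave 70 of 20049 gene symbols, of which 35 code for ligands and 35 for receptors. Total RNA was extracted with TRIzol from established cultures kept in RPMI1640 or DMEM with 10% serum, and each line gave 1 TruSeq library. The lines were GI-ME-N, SK-N-SH, SK-N-AS, LS, IMR5-75, NGP, SK-N-FI, SH-SY5Y, IMR32, SK-N-DZ, SK-N-BE(2)C, NBL-S, CLB-GA and Lan-6, all untreated as far as the labels say. SH-SY5Y is a subclone of SK-N-SH, and IMR5-75 derives from IMR32, which is general knowledge and not in the labels. The labels give no class, genotype or treatment, so lines were compared along continuous measures. With 1 library per line, no difference between any pair of lines has a replicate check, and p-values reflect the spread among lines, technical differences between single libraries included.

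Axon guidance molecules steer growing nerve fibres and migrating cells, including the neural crest cells from which the sympathetic nervous system and neuroblastoma arise. Semaphorins act through plexins, and the secreted class 3 semaphorins do so with neuropilins as co-receptors. Ephrins are membrane-bound ligands of the Eph receptor tyrosine kinases, Slits signal through ROBO receptors, and netrins attract through DCC or repel through UNC5 receptors. DCC, NEO1 and the UNC5 receptors are also known as dependence receptors, which can promote cell death where their ligand is missing.

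Library totals ran from 35856642 estimated counts in Lan-6 to 58644013 in LS. Levels are in CPM, counts scaled to the library's total after TMM scaling, which adjusts that total for composition. Where no count was seen, up to 3 counts remain possible from counting error alone, or 0.0514 CPM in LS and 0.102 CPM in Lan-6. Lan-6 stood apart, because its deviation from the other libraries followed transcript length (Spearman's rho across genes −0.26) and GC content (rho 0.49). This trend raised the median member by 0.50 log2 units in Lan-6 and shifted it by −0.23 in GI-ME-N and in LS. Levels are given before its removal unless stated, so extremes named for Lan-6, and some named for other lines, can change. Without the trend, PLXND1 had 106 CPM in Lan-6 and 144 CPM in NGP, and UNC5B 359 CPM in Lan-6 and 422 CPM in SK-N-FI. Lan-6 was then also not the highest line for EFNB1 and UNC5A, nor the lowest for SEMA3A, SLIT2 and ROBO1. PLXNB2 was then higher in GI-ME-N (533 CPM) than in SK-N-SH (451 CPM). The neuroblastoma label was checked against adrenergic markers. HAND2, a transcription factor of sympathetic neurons, was between 111 CPM (SK-N-SH) and 1101 CPM (CLB-GA). DBH, the enzyme that makes noradrenaline, was uneven, with 1.64 CPM (GI-ME-N) and 6.59 CPM (SK-N-SH), against 1.10 CPM (LS) to 2267 CPM (CLB-GA) in the other 12 lines. Summed levels over 6 Schwann cell markers were between 3.46 and 19.3 CPM, and over 6 endothelial markers between 1.12 and 10.7 CPM.

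Axon guidance genes differed between lines more than the typical gene did. The median SD of log2 CPM over the 14 lines was 1.77 for the 69 members that reached 0.5 CPM in at least 3 lines, against 0.83 for all 17165 genes that did. Of the 69, 61 (88.4%) lay above the median SD of all genes and 44 (63.8%) above its upper quartile of 1.52. The members' median mean level was also lower, at 3.37 log2 CPM against 4.13 over all genes, and the part of level in the spread was not tested. The remaining member, ROBO4, a receptor of endothelial cells, reached at most 2.03 CPM (SK-N-SH).

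The families differed in how evenly they were present. At 1 CPM or more in all 14 lines were 8 of 9 plexins, 8 of 20 semaphorins, 5 of 8 ephrins, both neuropilins, DCC and NEO1. So were 2 of 4 ROBO receptors, 2 of 4 UNC5 receptors and 1 of 3 Slits, but 0 of 14 Eph receptors and 0 of 4 netrins. The share over all genes is not given here. The plexins had the median SD closest to that of all genes, 0.94 log2 units. Eph receptors had 2.79 (n = 14 genes), Slits 2.91 (n = 3) and UNC5 receptors 2.51 (n = 4). Per line, between 48 members (GI-ME-N) and 66 members (IMR5-75) reached 1 CPM. Gene lengths are the median of basic coding transcripts in GENCODE 29, so levels per kb compare genes only as far as those isoforms are the ones transcribed.

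**Figure D1:**
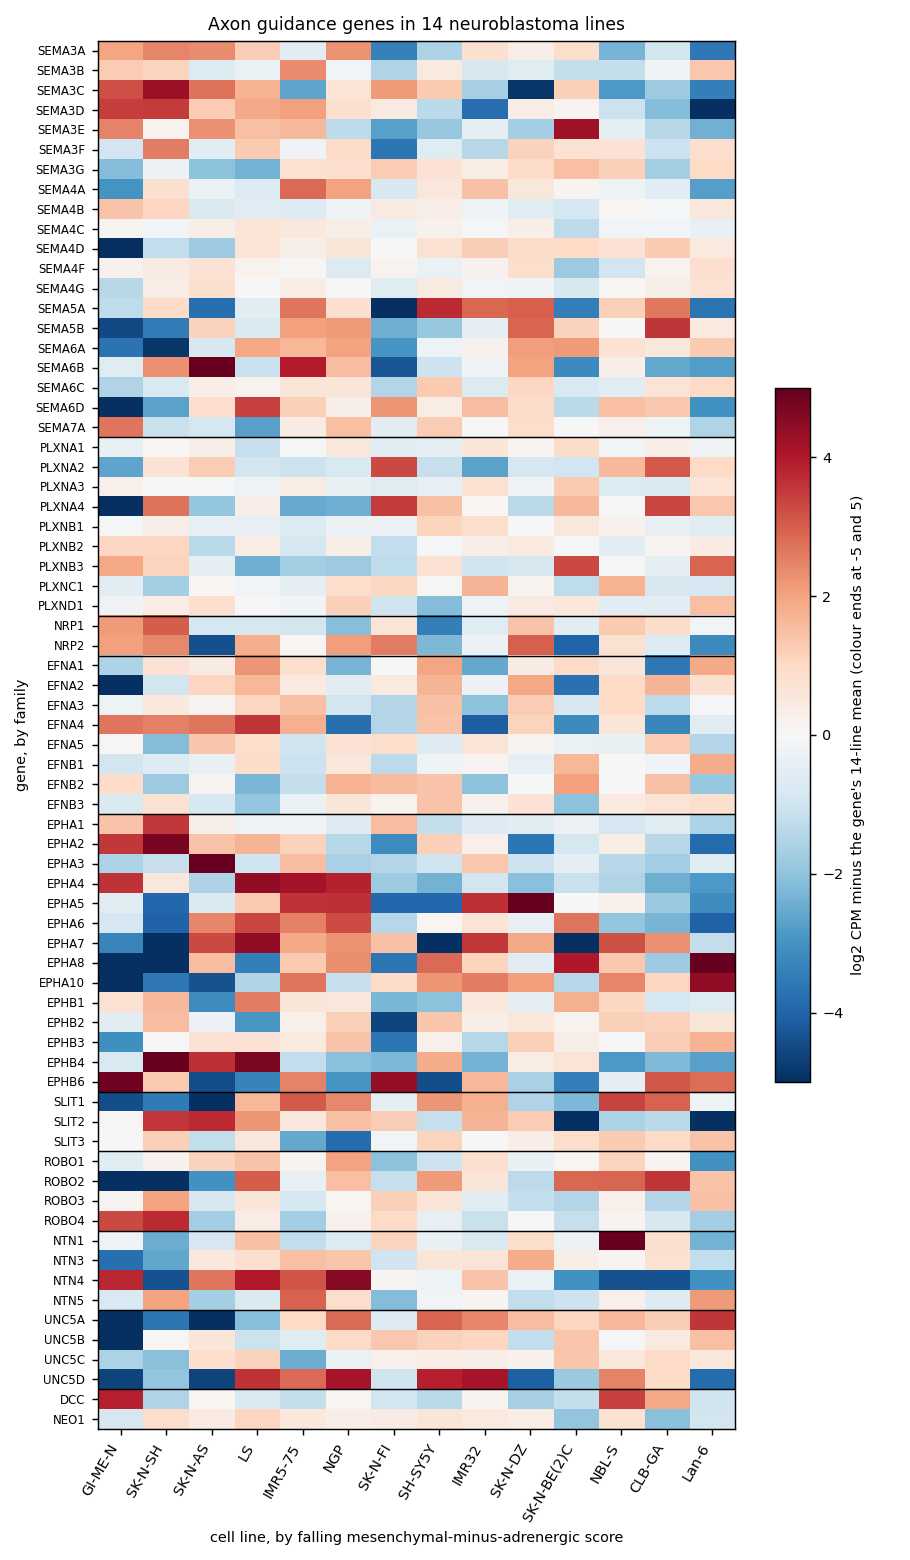
Level of each of the 70 axon guidance genes in each of 14 lines, as log2 CPM minus the gene's mean over the lines, with rows grouped by family and columns from the highest to the lowest mesenchymal-minus-adrenergic score. Plexin rows are pale apart from PLXNA2, PLXNA4 and PLXNB3, while the row of EPHA3 has its dark red cell in SK-N-AS.

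Among the ligands, SEMA6A, SEMA4C and SEMA6C, which are membrane proteins, had the highest median levels per kb of the 20 semaphorins. SEMA6A, a ligand of A-type plexins, had a median of 18.1 CPM per kb and ran from 1.43 CPM (SK-N-SH) through a median of 66.0 CPM to 187 CPM in SK-N-BE(2)C, with 3.22 CPM in GI-ME-N. SEMA4C was the evenest semaphorin, with 24.3 CPM at the lowest (SK-N-BE(2)C), 62.1 CPM at the median and 96.7 CPM at the highest (LS). Its SD was 0.49 log2 units, and it led the class 4 semaphorins per kb in every line but SK-N-BE(2)C, where SEMA4D did. In Lan-6 that lead passed to SEMA4F once the length and GC trend was removed.

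The secreted class 3 semaphorins had SDs between 1.15 log2 units (SEMA3B) and 2.82 log2 units (SEMA3C). SEMA3C, which signals through both neuropilins, ran from 0.342 CPM in SK-N-DZ through a median of 21.9 CPM to 216 CPM in SK-N-SH. It was the leading class 3 transcript per kb in 7 of the 14 lines before any trend removal, among them SK-N-SH (57.0 CPM per kb) and GI-ME-N (27.8 CPM per kb). SEMA3A, the repellent that collapses growth cones through NRP1, had its lowest level in Lan-6 (1.19 CPM) and its highest in SK-N-SH (79.9 CPM), with a median of 22.0 CPM. SEMA3E, which binds PLXND1 directly, was under 1 CPM in most lines (median 0.521 CPM) but at 14.6 CPM in SK-N-BE(2)C. SEMA3B and SEMA3F, neighbours on chromosome 3, had medians of 6.45 and 13.8 CPM and maxima of 39.3 CPM (IMR5-75) and 65.4 CPM (SK-N-SH). SEMA3G stayed low everywhere, at most 2.16 CPM (SK-N-BE(2)C). SEMA6B was likewise low at the median, 0.924 CPM, yet SK-N-AS had 61.1 CPM and IMR5-75 19.2 CPM.

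The other membrane-bound semaphorins fell into even and uneven members. SEMA4B, SEMA4F, SEMA4G and SEMA6C stayed above 1 CPM in every line, with medians of 21.9, 34.5, 23.5 and 26.8 CPM. SEMA6D, SEMA5A and SEMA5B were far less even. SEMA6D ran from 0.217 CPM in GI-ME-N through 44.6 CPM to 261 CPM in LS, and SEMA5A from 0.253 CPM in SK-N-FI through 19.0 CPM to 136 CPM in SH-SY5Y. SEMA5B ran from 0.124 CPM in GI-ME-N through 4.72 CPM to 47.0 CPM in CLB-GA. SEMA7A, which is anchored by a lipid tail, was highest in GI-ME-N, with 25.7 CPM against a median of 3.94 CPM. SEMA4A had a median of 2.46 CPM and at most 18.2 CPM (IMR5-75).

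Among the ephrins, EFNB3 and EFNA5 had the highest median levels, 11.5 and 6.97 CPM per kb. EFNB3, a transmembrane ephrin of neural tissue, was between 6.94 CPM (SK-N-BE(2)C) and 79.6 CPM (SH-SY5Y), with a median of 37.2 CPM. EFNA5, which is anchored by a lipid tail, was between 7.11 CPM (SK-N-SH) and 84.9 CPM (SK-N-AS), with a median of 34.4 CPM. EFNB2, known as the partner of EPHB4 on blood vessels, had its highest level in SK-N-BE(2)C (95.6 CPM) and its lowest in LS (4.68 CPM). EFNA4 was the most variable ephrin, with 24.9 CPM in LS, a median of 3.79 CPM, and 0.0749 CPM in IMR32, where it had 3 counts. EFNB1 was evener, between 6.59 CPM (SK-N-FI) and 60.2 CPM (Lan-6). EFNA1, EFNA2 and EFNA3 had medians of 3.97, 2.85 and 5.02 CPM, and none exceeded 13.7 CPM.

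SLIT3 was the leading Slit per kb in 11 of 14 lines and had the highest median, 31.0 CPM per kb. It ran from 14.0 CPM in NGP through 276 CPM to 537 CPM in Lan-6. SLIT2, the best studied ROBO ligand, was lowest in Lan-6 (0.237 CPM) and highest in SK-N-AS (252 CPM), with a median of 36.1 CPM, and it led in SK-N-AS and NGP. In IMR5-75, SLIT1 led with 6.70 CPM per kb. The 4 netrins had medians between 0.0480 CPM per kb (NTN1) and 2.31 CPM per kb (NTN3), and NTN4, a netrin of basement membranes, had 0.334 CPM per kb. NTN3 was between 0.186 CPM (GI-ME-N) and 11.2 CPM (SK-N-DZ), with a median of 4.59 CPM. NTN4 ran from 0 counts in CLB-GA, NBL-S and SK-N-SH through a median of 0.855 CPM to 21.9 CPM in NGP. NTN5 had a median of 0.421 CPM and at most 4.67 CPM (IMR5-75).

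Among the receptors, PLXNB2 and PLXNA1 had the highest median levels of their family, 46.8 and 23.7 CPM per kb. PLXNB2 was between 77.0 CPM (SK-N-AS) and 418 CPM (SK-N-SH), with a median of 229 CPM, and PLXNA1 between 97.3 CPM (LS) and 399 CPM (SK-N-BE(2)C), with a median of 215 CPM. Both serve as signalling receptors of semaphorins. PLXNA2 was the leading plexin in SK-N-FI, with 828 CPM, and in CLB-GA, with 711 CPM, against a median of 48.4 CPM. PLXNA4 had 206 CPM in SK-N-FI and 185 CPM in CLB-GA, so both lines were high in both of these A-type plexins. PLXNA3 and PLXNB1 were even, between 50.3 and 206 CPM and between 39.3 and 136 CPM. PLXNB3 was not, with a median of 9.67 CPM and levels of 130 CPM (SK-N-BE(2)C), 100 CPM (Lan-6) and 49.8 CPM (GI-ME-N) at the top, and SRPK3 overlaps its exons on the same strand. PLXND1, the receptor of SEMA3E, was between 12.9 CPM (SH-SY5Y) and 166 CPM (Lan-6), and PLXNC1 between 2.99 CPM (SK-N-SH) and 32.8 CPM (NBL-S).

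The neuropilins were present in all lines but with either gene ahead. NRP1 led per kb in 7 lines and NRP2 in the other 7. NRP1 was between 5.53 CPM (SH-SY5Y) and 476 CPM (SK-N-SH), with a median of 47.5 CPM, and NRP2 between 1.70 CPM (SK-N-AS) and 297 CPM (SK-N-DZ), with a median of 50.9 CPM. In NGP, NRP2 held 93.9% of the summed neuropilin level per kb, while in SK-N-AS NRP1 held 93.5%. Reads of NRP1 and NRP2 could include those of antisense genes that overlap their exons, since no source used here states the strand setting. Exons of 26 members overlap those of another gene, and the same holds for the 21 with an overlap on the opposite strand. In the other 5 the overlap is on the same strand, where reads can be shared under any strand setting.

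The most abundant EphA receptor changed from line to line. These receptor tyrosine kinases mostly bind the lipid-anchored A-type ephrins. EPHA7 led per kb in 7 lines, namely LS, IMR32, NBL-S, CLB-GA, NGP, SK-N-DZ and SK-N-FI, with 50.2 CPM per kb at the highest (LS) and 6.47 CPM per kb at the lowest (SK-N-FI). Its level ran from 0.0455 CPM in SK-N-BE(2)C through a median of 36.9 CPM to 213 CPM in LS. EPHA2, a receptor known from many carcinomas, held 83.9% of the summed EphA level in GI-ME-N and 92.7% in SK-N-SH. EPHA3 held 72.6% in SK-N-AS, with 86.7 CPM per kb.

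EPHA8 led in Lan-6 with 39.8 CPM per kb and in SK-N-BE(2)C with 10.1 CPM per kb. EPHA10, a family member without kinase activity, led in IMR5-75 and SH-SY5Y, with 9.31 and 6.80 CPM per kb. In IMR5-75 its lead over EPHA7, at 8.79 CPM per kb, was narrow. The leading EphA receptor of every line was the same after removal of the length and GC trend, although Lan-6 then had 66.0 CPM of EPHA8, against 134 CPM before, and 35.5 CPM of EPHA10, against 82.1 CPM before. EPHA4, EPHA5 and EPHA6 were each above 1 CPM in 5, 5 and 6 lines. EPHA4 reached 17.8 CPM in LS, EPHA5 30.2 CPM in SK-N-DZ and EPHA6 7.66 CPM in LS, with medians of 0.295, 0.536 and 0.635 CPM.

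**Figure D2:**
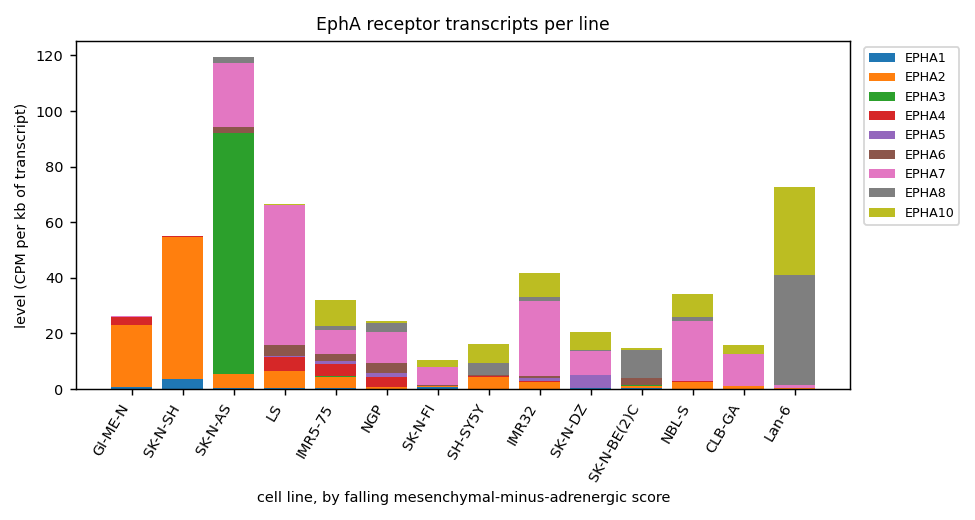
Level of the 9 EphA receptors in each of 14 lines, stacked, in CPM per kb of transcript, with lines ordered by the mesenchymal-minus-adrenergic score from high to low. GI-ME-N and SK-N-SH are mostly EPHA2, SK-N-AS is mostly EPHA3, LS mostly EPHA7, and Lan-6 is made up of EPHA8 and EPHA10.

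The EphB receptors, which bind the transmembrane ephrins, were led by EPHB2 in 9 lines. EPHB2 had the highest median of all Eph receptors, 8.80 CPM per kb, and was between 0.957 CPM (SK-N-FI) and 69.6 CPM (SK-N-SH), with a median of 32.3 CPM. EPHB4 led in SK-N-SH, LS and SK-N-AS, with 105, 76.2 and 36.7 CPM, and the other 11 lines had at most 10.5 CPM (SH-SY5Y). EPHB6, which lacks kinase activity, led in GI-ME-N with 28.6 CPM and in SK-N-FI with 20.8 CPM, against a median of 1.52 CPM. EPHB3 had a median of 13.2 CPM and was under 1 CPM only in SK-N-FI, with 0.794 CPM. EPHB1 had a median of 2.07 CPM and at most 8.52 CPM (LS).

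ROBO1 had the highest median of the Slit receptors, 12.7 CPM per kb, and was between 9.90 CPM (Lan-6) and 331 CPM (NGP), with a median of 90.3 CPM. ROBO2 was between 0.0549 CPM (SK-N-SH, 2 counts) and 157 CPM (CLB-GA), with a median of 27.5 CPM. ROBO3, a receptor of fibres that cross the midline, was between 3.67 CPM (CLB-GA) and 41.1 CPM (SK-N-SH). Of the netrin receptors, UNC5B and UNC5C were high in most lines, with medians of 36.02 and 35.7 CPM per kb, and 1 of these 2 genes led the UNC5 family in every line. UNC5C was between 29.6 CPM (IMR5-75) and 439 CPM (SK-N-BE(2)C), with a median of 208 CPM. UNC5D split the lines, with 6.42 CPM (NBL-S) to 20.2 CPM (NGP) in 6 lines, 2.24 CPM in CLB-GA, and no more than 0.524 CPM, the level of SK-N-FI, in the remaining 7. NEO1, a receptor of repulsive guidance molecules and netrins, was between 13.7 CPM (CLB-GA) and 123 CPM (LS), with a median of 77.8 CPM. DCC had a median of 2.61 CPM and was above 10 CPM only in GI-ME-N, NBL-S and CLB-GA, with 69.6, 51.2 and 17.9 CPM.

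Neuroblastoma cells occur in an adrenergic state, with sympathetic neuron genes, and a mesenchymal state, with genes of crest-like or stromal cells. To set the members against this axis, each line was given a score, the mean centred log2 CPM of 15 mesenchymal genes minus that of 15 adrenergic genes. No axon guidance member is in either list. GI-ME-N scored 10.28 and SK-N-SH 9.75, and the next line was SK-N-AS with 2.05. Lan-6 was the lowest, with −3.88. The gap of 7.70 below SK-N-SH was 54.4% of the whole range, so a slope on this score rests largely on 2 lines. Summed fibroblast markers, 8 genes, moved with the score, with 12357 CPM (GI-ME-N) and 15100 CPM (SK-N-SH), against 93.9 CPM (IMR32) to 2490 CPM (SK-N-AS) in the other lines. All 8 were above 1 CPM in both lines, and 4 to 8 of them in each other line. Their part in the slopes was not tested, and in bulk cultures a change in the share of cells and a change in RNA per cell cannot be told apart.

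In the 12 lines left after the 2 subclones were set aside, 3 of 69 members had a slope above 0 and 3 a slope below 0 at an adjusted p under 0.05 (edgeR's quasi-likelihood test, Benjamini-Hochberg over all genes). Over all 17135 genes, 3.76% rose and 2.78% fell, so these counts are near the background and are no result about the family. At an unadjusted p under 0.05, 9 members rose and 10 fell, against 10.3% and 11.1% of all genes. The median slope was −0.08 log2 units per SD of the score for the members and −0.03 for all genes, with an SD of 4.97 score units. EPHA2, EPHA1 and SEMA3D rose with the score, and EPHA10, UNC5A and EPHA8 fell.

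These 6 genes lie on chromosomes 1, 5 and 7, and the bases upstream of 5 of them are given here because these are the genes called on the score. Each run starts 250 bases before the RefSeq gene start on GRCh38.p14 and is written 5′ to 3′ on the strand of the gene. It ends at that start or, for EPHA2, EPHA1 and UNC5A, where the gene begins further upstream in GENCODE 29, so it has 232, 214 and 168 bases for these 3 genes. Capitals mark matches on either strand to the AP-1 motif TGANTCA, the E-box CACGTG, the TEAD motif GGAATG and the GC box GGGCGG. EPHA10 is not shown.
EPHA2: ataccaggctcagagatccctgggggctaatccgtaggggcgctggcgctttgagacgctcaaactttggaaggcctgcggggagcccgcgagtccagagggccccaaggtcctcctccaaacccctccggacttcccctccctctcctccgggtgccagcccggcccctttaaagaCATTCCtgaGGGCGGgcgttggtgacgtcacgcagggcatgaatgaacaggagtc
EPHA1: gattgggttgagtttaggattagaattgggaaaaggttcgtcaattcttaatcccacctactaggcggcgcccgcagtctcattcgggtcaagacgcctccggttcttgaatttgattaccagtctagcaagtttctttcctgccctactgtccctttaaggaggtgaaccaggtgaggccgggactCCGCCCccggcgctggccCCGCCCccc
SEMA3D: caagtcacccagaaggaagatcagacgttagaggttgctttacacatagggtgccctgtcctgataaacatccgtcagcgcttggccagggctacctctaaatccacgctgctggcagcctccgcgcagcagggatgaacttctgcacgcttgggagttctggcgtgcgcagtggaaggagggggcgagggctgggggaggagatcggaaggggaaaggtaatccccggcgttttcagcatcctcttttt
UNC5A: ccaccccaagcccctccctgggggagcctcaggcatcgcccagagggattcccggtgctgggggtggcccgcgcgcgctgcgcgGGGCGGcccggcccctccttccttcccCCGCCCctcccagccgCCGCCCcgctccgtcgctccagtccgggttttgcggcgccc
EPHA8: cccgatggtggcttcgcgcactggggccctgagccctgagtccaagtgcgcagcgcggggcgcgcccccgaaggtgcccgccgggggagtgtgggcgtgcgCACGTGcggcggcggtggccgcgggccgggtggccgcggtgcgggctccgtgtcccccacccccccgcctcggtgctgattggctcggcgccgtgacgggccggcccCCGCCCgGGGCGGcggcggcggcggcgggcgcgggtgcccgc
The windows are chr1:16156088-16156319 (EPHA2, minus strand), chr7:143408893-143409106 (EPHA1, minus strand), chr7:85187057-85187306 (SEMA3D, minus strand), chr5:176810309-176810476 (UNC5A, plus strand) and chr1:22563239-22563488 (EPHA8, plus strand).

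GC content was 63.8%, 55.6% and 57.6% in the windows of EPHA2, EPHA1 and SEMA3D, and 79.2% and 83.2% in those of UNC5A and EPHA8, with no test. The EPHA2 window held a TEAD motif and a GC box, EPHA1 held 2 GC boxes, UNC5A 3, and EPHA8 an E-box and 2 GC boxes. SEMA3D held none of these motifs. Over the full 250 bases before the RefSeq start, a GC box was found in 44 of the 60 members with an entry (73.3%), against 42.6% of all 35116 promoters. The E-box was in 4 (6.67% against 6.34%), the TEAD motif in 3 (5% against 11.9%) and AP-1 in 1 (1.67% against 6.57%). Each member has 1 entry here, while the 35116 are all entries, more than the 20049 gene symbols of the count table. The median number of CpG dinucleotides was 17 in the members' windows and 11 over all promoters, so the 2 sets are unlike in base content. A match is a run of letters and not evidence of binding, and these shares were not tested.

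EPHA2 is a receptor kinase gene at chr1:16124337-16156087 on GRCh38. GI-ME-N had 87.4 CPM and SK-N-SH 202 CPM, against 0.475 CPM (Lan-6) to 24.4 CPM (LS) in the other 12 lines. Both lines stood above all others, and the slope was 2.05 ± 0.35 log2 units per SD (SE, 12 lines, edgeR adjusted p = 0.00383). Of EPHA1 (chr7:143390289-143408892), the founding member of the Eph family, GI-ME-N had 2.76 CPM and SK-N-SH 11.99 CPM, against 0.305 CPM (Lan-6) to 2.997 CPM (SK-N-FI) in the others. SK-N-FI thus lay above GI-ME-N. The slope of EPHA1 was 1.22 ± 0.27 (SE, edgeR adjusted p = 0.0162), and ZYX overlaps its exons on the opposite strand. For SEMA3D (chr7:84995553-85186855), a secreted semaphorin, GI-ME-N had 76.8 CPM and SK-N-SH 78.4 CPM, against 0.102 CPM (Lan-6) to 29.2 CPM (IMR5-75) in the others. No other line reached these 2, and the slope was 1.72 ± 0.39 (SE, edgeR adjusted p = 0.0195).

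For EPHA10 (chr1:37713880-37765133), GI-ME-N had 0 counts and SK-N-SH 0.274 CPM, against 0.142 CPM (SK-N-AS) to 82.1 CPM (Lan-6) in the other 12 lines. SK-N-AS thus lies with the 2 lines of high score and all others had at least 1.32 CPM (LS). The slope was −2.94 ± 0.66 log2 units per SD (SE, edgeR adjusted p = 0.0180). UNC5A (chr5:176810477-176880898), a repulsive netrin receptor with exons that overlap HK3 on the opposite strand, was at 0.186 CPM (GI-ME-N) and 0.933 CPM (SK-N-SH), against 0.142 CPM (SK-N-AS) to 145 CPM (Lan-6) in the others. Again SK-N-AS was as low as the high-score lines, and the slope was −2.66 ± 0.64 (SE, edgeR adjusted p = 0.0265). EPHA8 (chr1:22563564-22603594) had 0 counts in GI-ME-N and in SK-N-SH, against 0.126 CPM (SK-N-FI) to 134 CPM (Lan-6) in the others. Both lines were below all others, but SK-N-FI (7 counts) and LS (9 counts) were close to them, and CLB-GA had 0.549 CPM. The slope of EPHA8 was −3.92 ± 1.09 (SE, edgeR adjusted p = 0.0489).

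**Figure D3:**
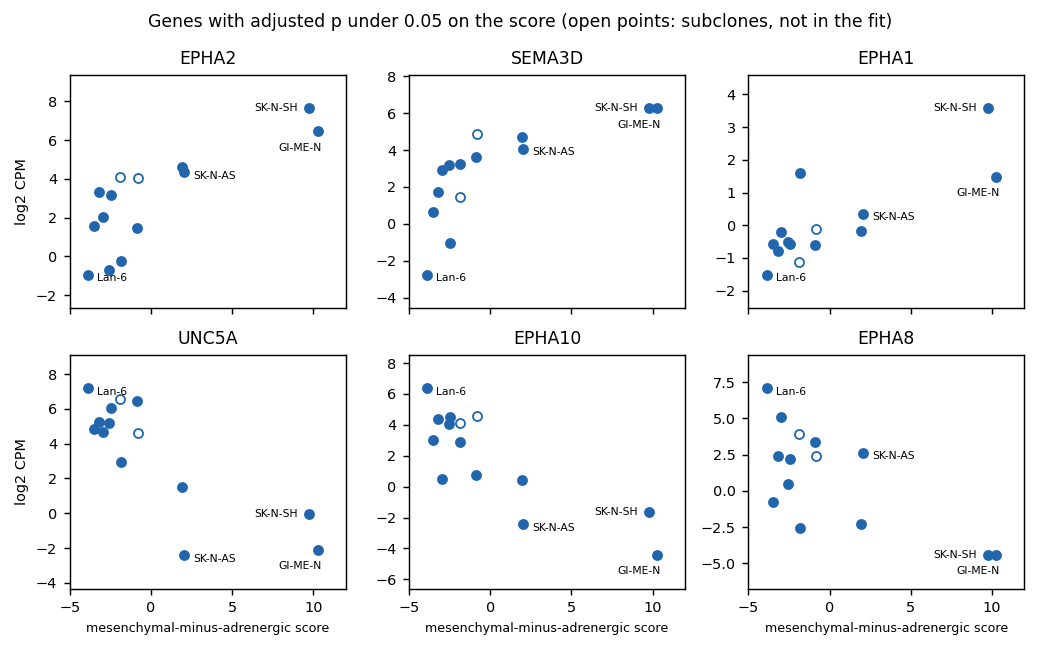
Level (log2 CPM) against the mesenchymal-minus-adrenergic score for the 6 genes with an adjusted p under 0.05, 1 point per line, with open points for the subclones that were not in the fit. GI-ME-N and SK-N-SH lie alone at the right of every panel, at the top for EPHA2 and SEMA3D and at the bottom for EPHA8.

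The calls depended on those 2 lines. Without GI-ME-N 3 members passed (EPHA1, EPHA2 and EPHB4), without SK-N-SH 3 passed (EPHA10, EPHA2 and SEMA4D), and without both only EPHA3 did, which was not among the 6. Leaving out LS gave 10 calls. Over all genes 2.53%, 3.46%, 0.356% and 5.96% passed in these 4 fits, against 6.54% with all 12 lines. Without Lan-6 and GI-ME-N, EPHA1, EPHA2 and SEMA3D passed, and with the subclones in place of their parents, EPHA10 and SEMA4D. The slopes of the 6 genes kept their sign under all 24 alternatives, and EPHA8 kept its call in 8 of them, losing it without Lan-6 and with the length and GC trend removed. DESeq2 called 19 members, the 6 among them, and 16.9% of all genes, against 6.54% with edgeR.

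Just outside the threshold were SEMA4D, the ligand of PLXNB1, with a slope of −1.18 (edgeR adjusted p = 0.0519), SEMA3C with 1.70 (adjusted p = 0.0610) and SEMA5B with −2.25 (adjusted p = 0.0622). EPHB4 had the steepest positive slope among these, 2.88 ± 0.91 (SE, edgeR adjusted p = 0.0810). By family, all 4 UNC5 receptors had slopes below 0, with a median of −1.22, against −0.03 over all genes. Of these 4, 1 passed and 2 had an unadjusted p under 0.05 (edgeR). UNC5B had a slope of −0.71 ± 0.40 and UNC5D of −1.65 ± 1.67 (SE). The 14 Eph receptors had 2 calls in each direction and 8 slopes above 0. Of 20 semaphorins 1 passed and 11 had slopes above 0. None of 9 plexins, 8 ephrins, 3 tested ROBO receptors, 3 Slits, 4 netrins, 2 neuropilins or DCC and NEO1 passed with edgeR, while 1 ephrin, 1 neuropilin, 1 ROBO receptor, 1 Slit and 1 netrin had an unadjusted p under 0.05.

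**Figure D4:**
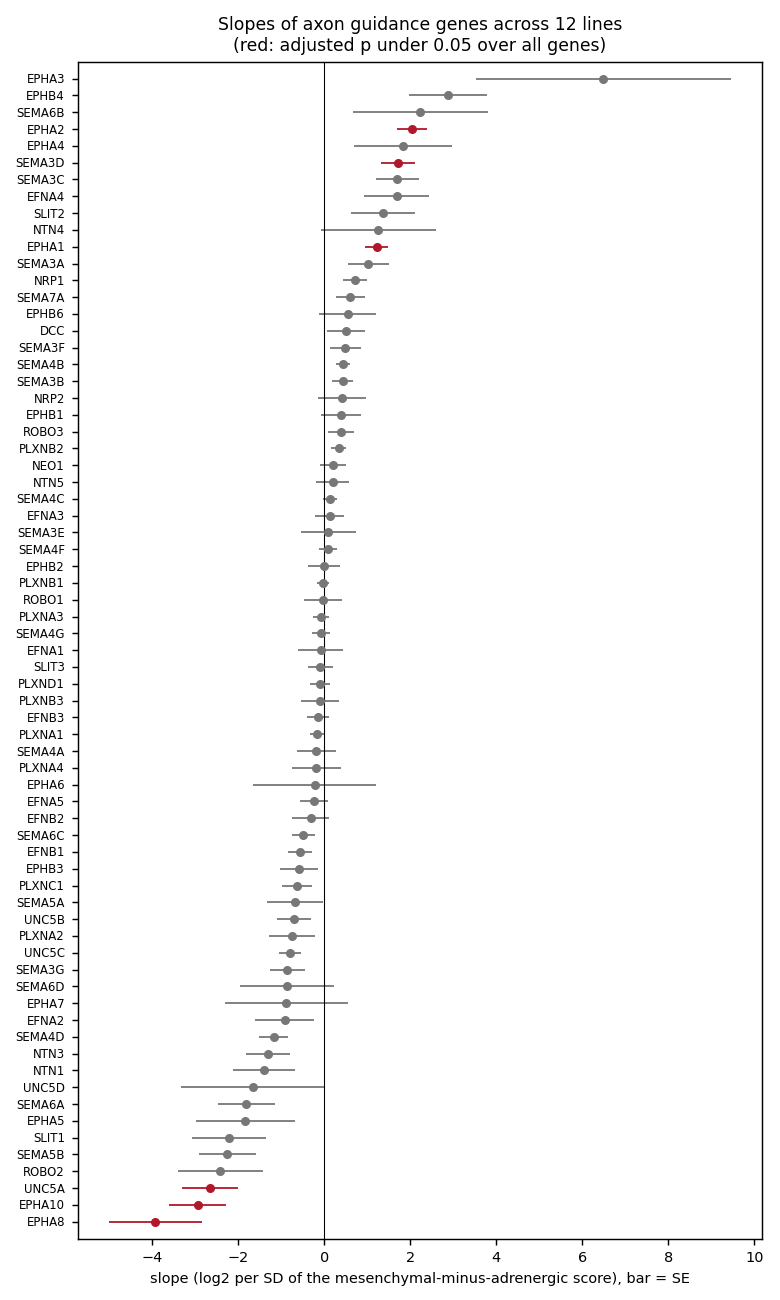
Slope of each of 69 axon guidance genes on the mesenchymal-minus-adrenergic score across 12 lines, in log2 units per SD of the score, with SE bars and red points for the 6 genes with an adjusted p under 0.05 over all genes. EPHA3 has the largest slope, 6.49, with an SE of 2.96, and is not among the red points.

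Other genes of these pathways, called mediators here, were counted on the same score from 4 lists. Not all of them act downstream of the receptors, since DSCAM, for example, is itself a netrin-binding receptor. Of all genes 3.76% rose and 2.78% fell, as above. Of 15 semaphorin mediators, MICAL2, an enzyme that oxidises actin, rose, while DPYSL5 and CRMP1 fell, both collapsin response mediators of neurons. GI-ME-N had 498 CPM of MICAL2 and SK-N-SH 330 CPM, against at most 27.6 CPM (NGP) in the others, with a slope of 2.10 ± 0.31 (SE, edgeR adjusted p = 0.00154). DPYSL5 was at 0.496 CPM (GI-ME-N) and 1.15 CPM (SK-N-SH), against at least 31.9 CPM (SK-N-AS) in the others, with a slope of −2.93 ± 0.51 (SE, adjusted p = 0.00442). CRMP1 had a slope of −1.37 ± 0.31 (SE, adjusted p = 0.0178). With edgeR, 0 of 11 ephrin mediators, 0 of 7 Slit mediators and 0 of 11 netrin mediators passed, and 3, 3 and 2 of them had an unadjusted p under 0.05. Of the semaphorin mediators, 1 rose and 5 fell at that level, against 10.3% and 11.1% of all genes.

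MYCN, the oncogene amplified in many high-risk neuroblastomas, was lowest in SK-N-SH (0.384 CPM) and highest in SK-N-BE(2)C (2245 CPM), and the labels give no amplification status. Across the 12 lines it fell with the score (Pearson's r −0.64, Spearman's rho −0.38, given as a description), so the scans on MYCN and on the score are not independent. Of 69 members, 0 rose with log2 MYCN and 1 fell at an adjusted p under 0.05 (edgeR), against 1.11% and 2.64% of all 17164 genes. At an unadjusted p under 0.05, 5 rose and 8 fell, against 10.2% and 15.0%. The single call was EPHA3, with a slope of −3.75 ± 0.93 log2 units per SD of log2 MYCN (SE, edgeR adjusted p = 0.0461). Without SK-N-AS the slope was 0.73 (adjusted p = 0.259), and the call was also lost when any line but Lan-6 was left out. Next came EPHA1 with −1.16 (adjusted p = 0.0609), UNC5D with 2.91 (0.0818) and EPHA5 with 2.42 (0.0854). Of the 44 mediators, FES, a tyrosine kinase, and DSCAM, a netrin-binding receptor, had slopes above 0 on MYCN that passed. These were 1.84 ± 0.42 (SE, edgeR adjusted p = 0.0370) and 4.39 ± 1.06 (SE, edgeR adjusted p = 0.0429). FES was between 0.155 CPM (GI-ME-N) and 11.6 CPM (SK-N-BE(2)C). DSCAM had 71.4 CPM in LS, 29.9 CPM in IMR32 and 6.13 CPM in NGP, and at most 1.46 CPM (CLB-GA) elsewhere. SK-N-BE(2)C, the line with the highest MYCN, had 0.0683 CPM of DSCAM. Without IMR32, 0.0233% of all genes passed on MYCN, against 3.75% with all 12 lines.

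In 4 of 69 members 1 line stood apart by at least 5-fold from the next line, 2 high and 2 low, against 2.47% and 1.68% of all 17165 genes. These counts are near the background and are no result about the family. EPHA3, a receptor of ephrin-A5 among others, reached 267 CPM in SK-N-AS, while none of the other lines exceeded 0.620 CPM (IMR5-75), a ratio of 431. EFNA5 too was highest in SK-N-AS, at 84.9 CPM. SK-N-AS was also the line with PTPRC, the leukocyte marker CD45, at 470 CPM, against at most 2.91 CPM elsewhere, while CD3E and AIF1 had 0 counts there. NTN1, the prototype netrin, had 12.7 CPM in NBL-S and at most 1.11 CPM (LS) elsewhere, a ratio of 11.4. DCC, its receptor, was at 51.2 CPM in the same line, the second highest level after GI-ME-N.

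UNC5B and SEMA4D were low in GI-ME-N. UNC5B had 3.41 CPM there and 68.9 CPM in the next lowest line, SK-N-DZ, a ratio of 20.2. In the other lines it reached 465 CPM (Lan-6). SEMA4D had 0.806 CPM in GI-ME-N, and the next lowest line was SK-N-AS with 7.72 CPM, a ratio of 9.58. SK-N-SH, with 11.5 CPM, was the third lowest line. All 4 genes met the same rule after the length and GC trend was removed.

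SH-SY5Y, a neuroblast-like subclone, was set against SK-N-SH, the line it came from. Of 69 members, 19 were at least 4-fold higher and 17 at least 4-fold lower in SH-SY5Y, against 9.29% and 8.46% of all genes. The 4-fold rule was set on log2 CPM with a prior count of 2, and some of these members were near the floor. The median absolute difference was 2.05 log2 units for the members and 0.69 over all genes. These are 2 libraries, and the counts describe them without a test. Receptors of netrins and Slits were among the members higher in SH-SY5Y. ROBO2 had 58.1 CPM in SH-SY5Y, against 0.0549 CPM (2 counts) in SK-N-SH. UNC5A had 93.5 CPM in SH-SY5Y, against 0.933 CPM in SK-N-SH, UNC5D 16.9 CPM against 0.247 CPM, and UNC5C 210 CPM against 38.6 CPM.

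Of 7 class 3 semaphorins, 5 were past 4-fold lower in SH-SY5Y and 0 past 4-fold higher, and both neuropilins were past 4-fold lower. NRP1 had 5.53 CPM in SH-SY5Y and 476 CPM in SK-N-SH, a difference of −6.42 log2 units and the most negative among the members. NRP2 had 7.80 CPM in SH-SY5Y and 197 CPM in SK-N-SH. SEMA3A had 4.93 CPM in SH-SY5Y and 79.9 CPM in SK-N-SH, SEMA3C 28.0 and 216 CPM, SEMA3D 2.71 and 78.4 CPM, and SEMA3F 7.23 and 65.4 CPM. The remaining one was SEMA3E, at 0.161 CPM in SH-SY5Y and 0.823 CPM in SK-N-SH.

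Of the 13 membrane-bound semaphorins, 6 were past 4-fold higher in SH-SY5Y and 1 past 4-fold lower. SEMA6A had 35.1 CPM in SH-SY5Y and 1.43 CPM in SK-N-SH, SEMA5A 136 and 19.3 CPM, SEMA6D 31.2 and 3.73 CPM, and SEMA6C, SEMA7A and SEMA4D were the other 3. The lower one was SEMA6B, at 0.574 CPM in SH-SY5Y and 6.09 CPM in SK-N-SH. Of the Slits, SLIT1 was higher in SH-SY5Y (16.7 against 0.274 CPM), SLIT2 lower (8.56 against 222 CPM) and SLIT3 within 4-fold (428 against 452 CPM).

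Among the Eph receptors, EPHA8 had 14.9 CPM in SH-SY5Y and 0 counts in SK-N-SH, at least 181-fold higher against a floor of 3 counts per library, and EPHA10 had 17.7 against 0.274 CPM. EPHA2 had 17.2 CPM in SH-SY5Y and 202 CPM in SK-N-SH, EPHB4 10.5 and 105 CPM, and EPHA1 0.413 and 11.99 CPM. EPHA6 was past 4-fold higher, with 33 counts in SH-SY5Y and 0 in SK-N-SH. EPHB1, EPHA4 and EPHB6 were also lower, the last with 0 counts in SH-SY5Y. The 6 genes called on the score were all past 4-fold between these libraries, and since SK-N-SH is in both comparisons this is no separate support. Among ligands, EFNB2 had 62.2 CPM in SH-SY5Y and 6.59 CPM in SK-N-SH, EFNA2 5.87 and 0.906 CPM, and NTN3 4.75 and 0.467 CPM. NTN4 was also past 4-fold higher, with 32 counts in SH-SY5Y and 0 in SK-N-SH, and NTN5 lower, with 22 and 87 counts. NTN1 was counted as higher with 12 counts against 1, but its ratio against the floor of 3 counts was 3.34. PLXND1 was the only plexin past 4-fold, at 12.9 CPM in SH-SY5Y and 75.3 CPM in SK-N-SH.

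IMR5-75 and IMR32 were closer to each other. Of 69 members, 10 were at least 4-fold higher and 4 at least 4-fold lower in IMR5-75, against 6.33% and 5.38% of all genes, with a median absolute difference of 1.15 log2 units against 0.62 over all genes. On the deposited log2 values 9 members passed in place of 14. The genes that were higher were mostly ligands. EFNA4 had 7.11 CPM in IMR5-75 and 0.0749 CPM (3 counts) in IMR32, EFNA3 13.7 and 1.15 CPM, and EFNA1 5.12 and 0.424 CPM. These 3 genes stand side by side on chromosome 1. SEMA3D had 29.2 CPM in IMR5-75 and 0.449 CPM in IMR32, SEMA6B 19.2 and 1.07 CPM, and SEMA3B 39.3 and 4.39 CPM. SEMA5B had 16.2 CPM in IMR5-75 and 2.72 CPM in IMR32, NTN5 4.67 and 0.624 CPM, and SEMA3E 2.37 and 0.524 CPM. EPHA4, a receptor of both ephrin classes, was the only receptor among the 10, with 14.8 CPM in IMR5-75 and 0.399 CPM in IMR32.

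The 4 lower genes were 3 receptors and a Slit. UNC5C had 29.6 CPM in IMR5-75 and 205 CPM in IMR32, and SLIT3 33.5 and 202 CPM. PLXNA4 had 3.17 and 19.7 CPM, and PLXNC1, the receptor of SEMA7A, 6.98 and 31.4 CPM.

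**Figure D5:**
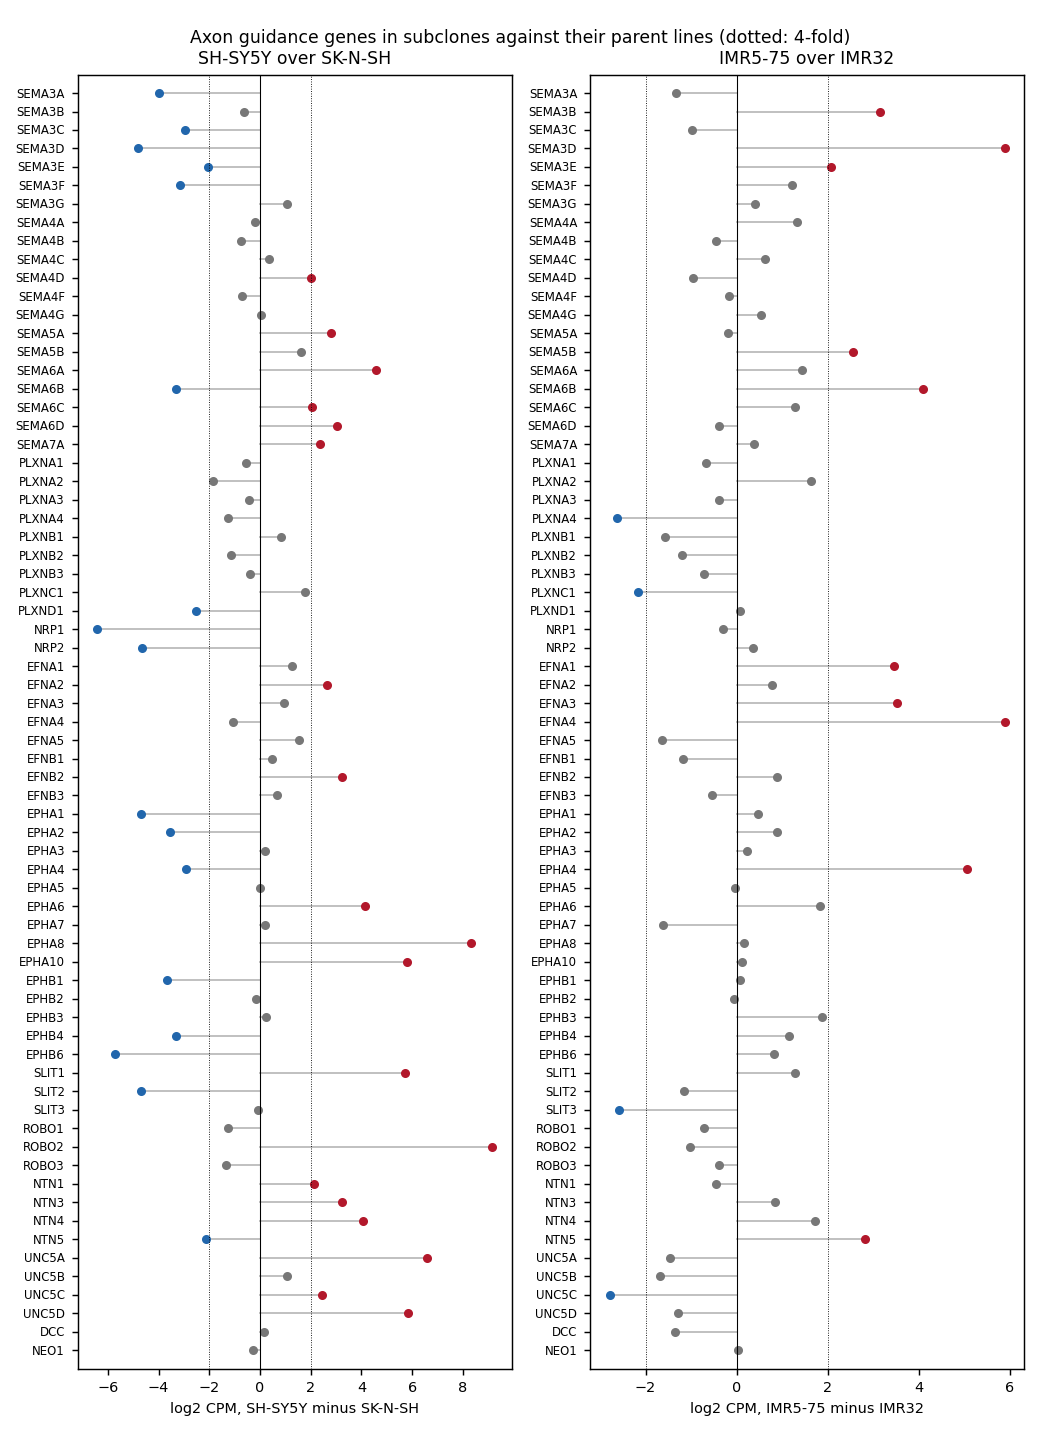
Difference in log2 CPM (prior count 2) of each of 69 axon guidance genes in SH-SY5Y over SK-N-SH (left) and IMR5-75 over IMR32 (right), with red points at least 4-fold higher and blue points at least 4-fold lower in the subclone. The left panel has 36 coloured points and the right panel 14.

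The 19 pairs of members less than 2000 kb apart had a median Pearson's r of 0.32 in log2 CPM over 12 lines, against 0.02 over all 2346 pairs. These correlations are descriptions, since all genes of a line were measured in the same library. Of the 19 pairs, 6 had r below 0, the lowest being EFNA4 and SEMA4A with −0.41. On chromosome 1, EFNA3 and EFNA4 (9.3 kb apart) had r = 0.80 and EFNA1 and EFNA3 r = 0.68. The exons of EFNA3 and EFNA4 both overlap those of the same gene AL691442.1 on their own strand, so their counts may share reads. On chromosome 7, SEMA3A had r = 0.64 with SEMA3D and 0.62 with SEMA3E. ROBO1 and ROBO2, 947 kb apart on chromosome 3, had r = 0.16.

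The members most alike across lines were not neighbours. The values given here were picked from the highest and lowest of 2346 pairs, and none was tested. EPHB3 and SEMA6C had r = 0.89 (rho 0.88) and EPHA10 and UNC5A r = 0.87 (rho 0.87), over 12 lines. EPHA10 and UNC5A were both called as falling on the score in these lines, so their likeness is no separate result. The lowest values were r = −0.90 (rho −0.71) for NTN3 and SEMA4B and r = −0.89 (rho −0.57) for EPHA1 and SEMA6A. After removal of the length and GC trend, these were −0.74 and −0.86. For EPHA10 and SEMA3D, which had opposite slopes on the score, r was −0.85 (rho −0.90).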

How the data were processed

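Libraries were made with the TruSeq protocol, per the labels' protocols. Per the submitters' processing notes, the tools were kallisto 0.44.0 and DESeq2 1.48.2 and the build GRCh38, with no step named for any. No source used here gives the annotation, the strand setting or the summing of transcripts. The deposited table holds whole numbers, which were read here in the unit of expected counts (estimated counts, rounded) with no scaling, and this reading rests on the values. The deposited log2 values are called variance-stabilised in the file, with no settings given, and served only as an alternative scale.

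In R 4.3.3, edgeR 4.0.16 gave CPM and log2 CPM (prior count 2) with TMM scaling. Genes with at least 0.5 CPM in at least 3 of 14 lines were tested, 17165 in all. The scans fitted a slope on the mesenchymal-minus-adrenergic score, or on log2 CPM of MYCN, over 12 lines with edgeR's quasi-likelihood test and Benjamini-Hochberg adjustment over all genes tested, with a threshold of 0.05. Genes that make up the score, or MYCN, were left out. The scan was tested on simulated data with known changes. SH-SY5Y and IMR5-75 were left out, since they derive from other lines of the set. Folds between 2 libraries and the rule for 1 line apart (5-fold, at 5 CPM or more) are rules of size with no test. Alternatives used DESeq2 1.42.0, limma 3.58.1, DESeq2's size factors, no filter, other sets of lines, either list of the score alone, a covariate, and removal of a length and GC trend (splines with 4 degrees of freedom per library). Gene positions, lengths and overlaps came from GENCODE 29 on GRCh38, which held 98.8% of the symbols by name. Promoter sequences came from RefSeq (GRCh38.p14), for 60 of 70 members. None of the 91 pairs of libraries had the same counts. The members, lists and rules were chosen with earlier results of these data known. Genes were named where either scan called them, or where 1 line or a subclone stood apart by the stated fold. The 2 highest of each family per kb at the median were named too, and other members are given by range or as examples.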

Additional observations from a re-analysis of the deposited data

How the results depend on the processing

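Of 69 members, 6 were called on the score in the fit reported. In brackets is the share of all genes called, 6.54% in that fit. DESeq2 called 19 (16.9%), limma on the deposited log2 values 10 (6.19%), subclones in place of their parents 2 (4.13%), the fit without Lan-6 and GI-ME-N 3 (3.17%), that lacking SK-N-SH and GI-ME-N 1 (0.356%), the adrenergic list alone 3 (5.41%), and MYCN as a covariate 3 (3.75%). Leaving out each line in turn gave 3 to 10, and 2.53% (without GI-ME-N) to 12.1% (without Lan-6) of all genes. On MYCN, 1 was called in the fit reported (3.75% of all genes), 13 with DESeq2 (17.8%), 2 with limma on the deposited log2 values (1.93%), 3 with all 14 lines (7.47%), and 0 with subclones in place of parents (0.0233%), without Lan-6 and GI-ME-N (1.22%), without SK-N-SH and GI-ME-N (0%), or with the score as a covariate (0.00583%). Leaving out each line in turn gave 0 to 4, with 4 without SK-N-AS (8.97% of all genes), where the slope of EPHA3 turned to 0.73 (in the other leave-one-out fits it was −4.37 at the lowest), and 2 without Lan-6 (5.45%). The count of members past 4-fold in IMR5-75 over IMR32 was 9 in place of 14 on the deposited log2 values. The cause of these changes was not tested. Of the slopes of named genes under the alternatives, 111 stayed on the same side of the threshold, 54 lost the call with the same sign and 1 turned. Depth limits how low a level can be read: EPHA8, with 0 counts in GI-ME-N and SK-N-SH, could be at up to 0.0930 and 0.0823 CPM there. No paired analysis was possible because the labels give 1 group with 1 library per line.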
